A study of Mus musculus with 11 samples.

Results

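The macrophage genes of mouse liver were described here through 35 genes: markers of Kupffer cells, the macrophages that live in the liver sinusoids, and genes that most macrophages, monocytes and other leukocytes share. Members were taken by gene symbol from the array's annotation, and 34 of the 35 had a probe set with a single symbol, out of 12393 genes represented on the array. Timd4, a receptor for phosphatidylserine on long-lived resident macrophages, had none, so its signal was not analysed here. The 34 genes were read by 49 of the 22690 probe sets, since 7 of them had several. Their roles are described in groups: resident Kupffer genes (Cd5l, Clec4f, Vsig4 and Folr2), scavenger and complement genes, general macrophage genes, and leukocyte genes.

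Liver RNA came from 11 male mice of a mixed background, with 1 oligonucleotide array per mouse. Of these, 4 carried the Akt1 double transgene and ate a high-fat diet, 4 were wild type on the high-fat diet, and 3 were wild type on a normal (control) diet. Muscle hypertrophy is marked for the transgenic mice alone, and the labels name neither the promoter of the transgene nor the age of the mice. Doxycycline was given to every mouse for 3 weeks, so each group carries that treatment and none is free of it. No transgenic mice on the normal diet are among the samples, so genotype was compared on the high-fat diet only.

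Kupffer cells settle in the liver before birth and renew themselves there, and they clear particles, complement-coated microbes, old red cells and lipoproteins from the portal blood. Their identity depends on the growth factor receptor Csf1r and on the transcription factor PU.1, which Spi1 encodes and which acts in all myeloid cells. Monocytes from the blood enter an injured liver through the chemokine receptor Ccr2 and can take on part of the Kupffer cell programme, with some markers, such as Timd4, gained late. Genes such as Ptprc, Cd52 and Coro1a are made by most leukocytes and do not separate these cells.

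Promoters of the 4 resident genes are shown because these genes are compared with the general myeloid ones, and PU.1 is itself a member. Each line gives the 250 bases before the gene's first transcribed base, 5′ to 3′ on the coding strand, from RefSeq on GRCm38.p6. Capitals mark GAGGAA, a core of the PU.1 motif, on either strand (TTCCTC where it lies on the other strand). Cd5l lies on the plus strand at chr3:87357631-87357880, and Folr2 on the minus strand at chr7:101857191-101857440 (a second annotated start, 101845332-101845581, is not shown). Vsig4 lies on the minus strand at chrX:96293439-96293688 and Clec4f on the minus strand at chr6:83656117-83656366.
Cd5l: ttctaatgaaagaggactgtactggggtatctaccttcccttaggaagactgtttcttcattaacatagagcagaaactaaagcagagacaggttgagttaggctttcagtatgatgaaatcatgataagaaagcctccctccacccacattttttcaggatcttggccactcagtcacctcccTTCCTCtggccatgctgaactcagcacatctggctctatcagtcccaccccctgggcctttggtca
Folr2: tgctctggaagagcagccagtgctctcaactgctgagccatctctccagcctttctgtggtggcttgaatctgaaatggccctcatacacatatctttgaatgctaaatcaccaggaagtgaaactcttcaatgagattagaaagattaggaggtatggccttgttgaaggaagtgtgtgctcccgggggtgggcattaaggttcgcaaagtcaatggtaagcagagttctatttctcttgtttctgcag
Vsig4: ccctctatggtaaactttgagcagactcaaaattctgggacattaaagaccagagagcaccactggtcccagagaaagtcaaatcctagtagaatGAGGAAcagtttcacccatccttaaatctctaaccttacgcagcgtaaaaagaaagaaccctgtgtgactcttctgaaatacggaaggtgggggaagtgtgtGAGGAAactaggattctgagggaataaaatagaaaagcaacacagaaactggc
Clec4f: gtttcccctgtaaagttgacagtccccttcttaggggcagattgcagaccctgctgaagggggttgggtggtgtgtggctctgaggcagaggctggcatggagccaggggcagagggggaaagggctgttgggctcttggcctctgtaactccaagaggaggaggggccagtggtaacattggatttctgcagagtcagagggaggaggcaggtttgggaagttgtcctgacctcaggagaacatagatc

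With -1 as the base just before the start, the motif began at position -66 (other strand) in Cd5l and at positions -155 and -53 in Vsig4, and these letters are not in the Folr2 and Clec4f windows. Of the 26 listed genes with a RefSeq promoter (Timd4 included), 14 (53.8%) held GAGGAA in at least 1 window of 250 bases, against 25.9% of all 27025 genes in that table and 25.4% of the 6495 that were also tested on the arrays. Other members that held it include C1qb, C1qc, Ctss, Mrc1, Cd53, Aif1 and Itgam, and members without it include Mpeg1, Lyz1, Lyz2, Fcer1g and Cybb. A letter match is a description of the sequence and says nothing of binding.

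Signals are linear MAS5 values, a probe set summary scaled to the same trimmed mean on every array, so a signal can be compared across arrays for 1 probe set but not between genes. Median signals lay between 97.2 and 118 per array. Transgenic arrays 3 and 4 stood apart in their highest signals, 42426 and 43273, against 27779.5 to 35450.1 on the other 9. The poly-A spike probe sets set transgenic array 3 apart as well, with an average of 92.1, against 231 to 372 on the other 10. Precision is limited by the number of arrays. Of the 34 genes, 31 passed the filter on low signals (a geometric mean over all arrays above about 53.0). Marco, Ccr2 and Itgam did not.

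Across the 31 genes, signals were highest on average in transgenic mice, lower in wild-type mice on the high-fat diet and lowest on the normal diet. Only 2 genes passed the test in any comparison: Cd5l and Folr2, both resident Kupffer genes, rose in transgenic mice against wild-type mice on the normal diet. Limma was fitted across 7924 genes with all 11 arrays, with Benjamini-Hochberg adjustment over all of them and a threshold of 0.05. In transgenic mice against wild-type mice also on the high-fat diet, 0 of the 31 passed (0.366% of all genes did), 2 had an unadjusted p under 0.05 with higher signal (6.95% of all genes) and 0 with lower signal (6.74%), and the median log2 difference was 0.47, against 0.001 over all genes. On the high-fat diet against the normal diet in wild-type mice, 0 of the 31 passed (0% of all genes), 6 had an unadjusted p under 0.05 with higher signal (3.92%) and 0 with lower signal (3.09%), and the median was 0.58, against 0.007 over all genes. In transgenic mice against the normal diet, 2 of the 31 rose and none fell (1.4% of all genes rose and 0.681% fell), 24 had an unadjusted p under 0.05 with higher signal (9.96%) and 0 with lower signal (8.35%), and the median was 1.02, against 0.004.

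Fitted differences lay above 0 for 29 of 31 genes between transgenic and wild-type mice on the high-fat diet, for 28 of 31 between diets and for 30 of 31 between transgenic mice and the normal diet (50.2%, 51.1% and 50.6% of all genes). The 31 genes are not independent measures, since they come from the same arrays and partly from the same cells. Each pair of these comparisons shares the arrays of 1 group. Every array of the group named first lay above every array of the other for 1 gene (4.32% of all genes) between genotypes, for 5 (4.58%) between diets and for 20 (8.46%) between transgenic mice and the normal diet. The reverse order held for none of the 31 (4.09%, 3.33% and 7.1% of all genes). In whole liver, more macrophages and more RNA per macrophage cannot be told apart.

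**Figure D1:**
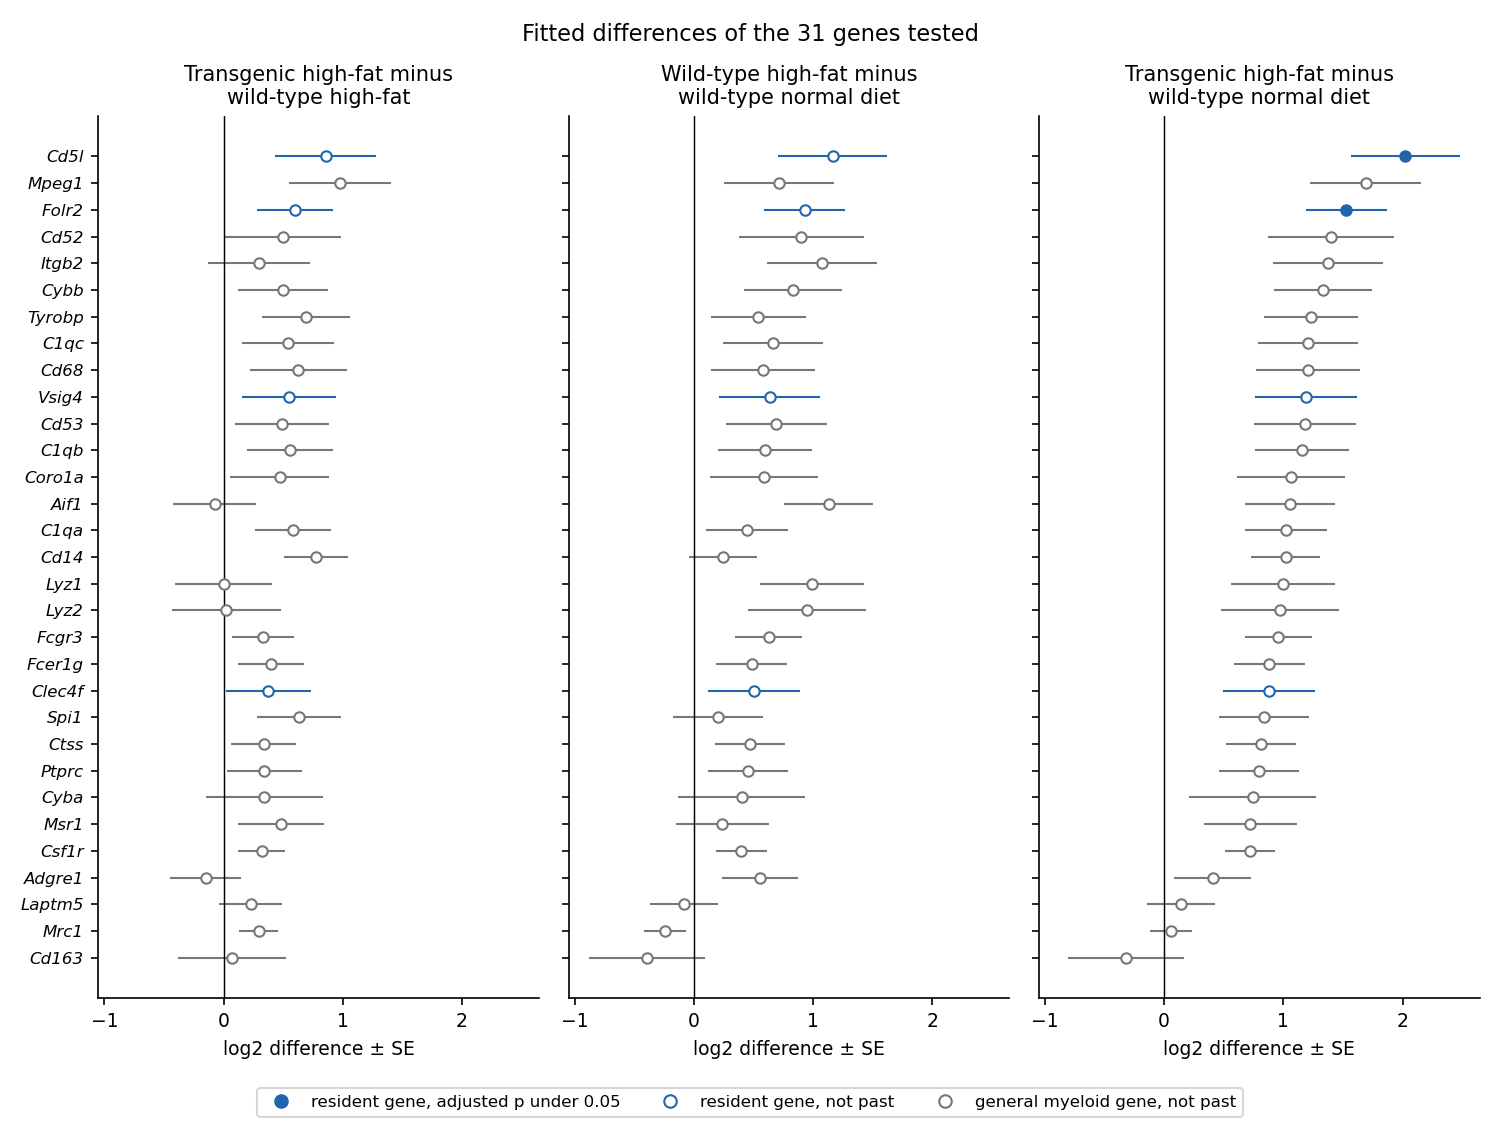
Fitted log2 differences (x axis) with limma's moderated standard error for the 31 genes that passed the signal filter (y axis), in each comparison; blue marks the 4 resident Kupffer genes and filled points an adjusted p under 0.05. Only Cd5l and Folr2 are filled, both in transgenic mice against the normal diet, and 30 of 31 points lie above 0 there.

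Cd5l, a secreted scavenger receptor family protein (also called AIM) that macrophages make and that circulates bound to IgM, had the largest difference of the 31 in transgenic mice against the normal diet. Its signals were 2796, 3509.8, 1021 and 2232 in transgenic arrays 1 to 4, 1299, 2159, 604 and 1225 in wild-type high-fat arrays 1 to 4 and 801, 356 and 539 in normal-diet arrays 1 to 3. All transgenic arrays lay above all normal-diet arrays, while the wild-type high-fat arrays overlapped both groups. Cd5l averaged 2389.7 ± 1052 in transgenic mice (SD, n = 4) and 565 ± 224 on the normal diet (SD, n = 3), a log2 difference of 2.02 ± 0.46 (SE; 4.06-fold, limma adjusted p = 0.0456). Against wild-type mice on the high-fat diet the log2 difference was 0.86 ± 0.42 (limma adjusted p = 0.402), and between diets it was 1.16 ± 0.46 (limma adjusted p = 0.674), so neither step passed alone.

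Folr2, the folate receptor beta of tissue macrophages, had signals of 191, 332, 109.5 and 159 in transgenic mice, 127, 134, 137 and 89.4 in wild-type mice on the high-fat diet and 79.2, 45.1 and 70.7 on the normal diet. Both high-fat groups lay wholly above the normal-diet arrays, and they overlapped each other. The log2 difference was 1.53 ± 0.34 in transgenic mice against the normal diet (2.88-fold, limma adjusted p = 0.0447). Between genotypes on the high-fat diet it was 0.60 ± 0.32 (limma adjusted p = 0.429) and 0.93 ± 0.34 between diets (limma adjusted p = 0.670). Between genotypes the Folr2 difference was 0.31 without transgenic array 2, and that of Cd5l was 0.53 without wild-type high-fat array 3.

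Both calls lay close to the threshold and changed when single arrays were left out. The wild-type high-fat arrays do not enter the differences themselves, but they enter the estimate of spread that the groups share. Leaving out any of the 3 normal-diet arrays, any transgenic array except number 3, or array 1 or 4 of the wild-type high-fat group left neither gene called, and only Cd5l passed without wild-type high-fat array 3. Without transgenic array 3, Cd5l, Folr2 and Csf1r passed, and without wild-type high-fat array 2, Cd5l, Folr2, Lyz1, Lyz2, Mpeg1 and Tyrobp did. Over all alternatives the log2 difference of Cd5l stayed between 1.73 and 2.55, with limma adjusted p from 0.0226 to 0.157. That of Folr2 stayed between 1.18 and 1.99, with limma adjusted p from 0.0286 to 0.152. Without transgenic arrays 3 and 4 the differences were 2.55 for Cd5l and 1.99 for Folr2, and neither passed.

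Vsig4 and Clec4f, resident markers largely restricted to Kupffer cells in mouse liver, had smaller differences that did not pass. Vsig4 encodes CRIg, a receptor for complement-coated particles, and had signals of 974, 1834, 604 and 1091 in transgenic mice, 973, 1050.2, 392 and 635 in wild-type high-fat mice and 765, 287 and 434 on the normal diet. Clec4f, a C-type lectin for galactose-containing glycans, had 1143, 1899, 563 and 1118 in transgenic mice, 899.7, 1173, 644 and 711 in wild-type high-fat mice and 942, 371 and 581 on the normal diet. For both genes every pair of groups overlapped, and normal-diet array 1 lay above 2 of the wild-type high-fat arrays or more. The log2 difference against the normal diet was 1.19 ± 0.43 in transgenic mice for Vsig4 and 0.88 ± 0.38 for Clec4f (limma adjusted p = 0.171 and 0.255). Against wild-type mice on the high-fat diet the differences were 0.55 ± 0.39 and 0.38 ± 0.36, and between diets 0.64 ± 0.43 and 0.50 ± 0.38, with limma adjusted p from 0.567 to 0.857. Single arrays moved these values: without transgenic array 2 the difference between genotypes was 0.28 for Vsig4 and 0.10 for Clec4f. For Vsig4 it was 0.27 without wild-type high-fat array 3, and for Clec4f 0.69 without transgenic array 3. Between diets Vsig4 and Clec4f had 0.30 and 0.17 without normal-diet array 2, and 1.01 and 0.84 without normal-diet array 1. Clec4f in transgenic mice against the normal diet was 0.55 without normal-diet array 2.

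**Figure D2:**
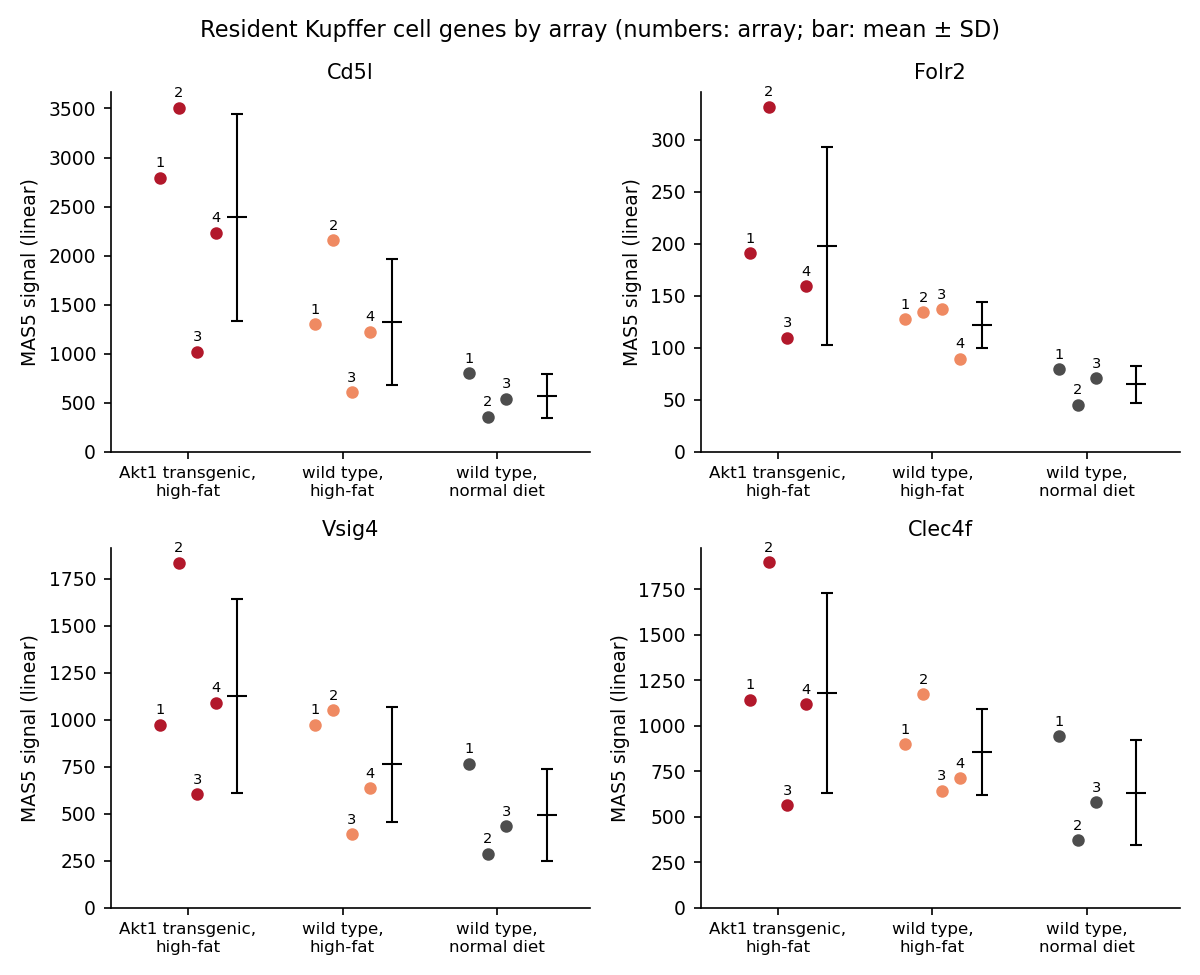
MAS5 signal (y axis, linear) of the 4 resident Kupffer genes in each array of the 3 groups (x axis), with array numbers above the points and the mean ± SD beside them. For Cd5l and Folr2 all 4 transgenic arrays lie above all 3 normal-diet arrays, while for Vsig4 and Clec4f the groups overlap and array 2 is highest in both high-fat groups.

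The C1q chains form the recognition unit of the classical complement pathway, and macrophages are the main source of all 3 chains. C1qa had signals of 653, 1348, 514 and 907 in transgenic mice, 623, 867, 342 and 443 in wild-type mice on the high-fat diet and 488, 328 and 380.1 on the normal diet. Transgenic arrays lay above all normal-diet arrays, though by little for array 3. Its log2 difference was 1.02 ± 0.34 in transgenic mice against the normal diet and 0.58 ± 0.32 against wild-type mice on the high-fat diet (limma adjusted p = 0.148 and 0.450). C1qb and C1qc had log2 differences of 1.16 and 1.21 in transgenic mice against the normal diet, 0.56 and 0.54 against wild-type high-fat mice, and 0.60 and 0.67 between diets. None of the 3 chains passed, and the 2 dimmer C1qb probe sets had the same sign as the brightest in all 3 comparisons.

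Scavenger and pattern recognition receptors differed among themselves. Cd14, the lipopolysaccharide co-receptor of macrophages and neutrophils, which hepatocytes can also make, had the smallest p of the 31 against wild-type mice on the high-fat diet. Its signals were 93.4, 84.3, 154 and 156 in transgenic mice, 51.8, 82.6, 78.8 and 65.8 in wild-type high-fat mice and 52.2, 61.3 and 60.7 on the normal diet. It was the only gene of the 31 whose transgenic arrays all lay above the wild-type high-fat arrays. That order held for 4.32% of all genes, so the order alone does not mark Cd14 out from genes at large. The margin was small, with 84.3 in the lowest transgenic array and 82.6 in the highest wild-type high-fat array. Unlike most of the 31, Cd14 was highest in transgenic arrays 3 and 4. Between genotypes on the high-fat diet Cd14 differed by 0.77 ± 0.27 on the log2 scale (limma adjusted p = 0.228), and by 1.02 ± 0.29 in transgenic mice against the normal diet (limma adjusted p = 0.0934). Without transgenic arrays 3 and 4, the arrays that stood apart, these differences were 0.37 and 0.62.

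Mrc1 encodes the mannose receptor, which liver endothelial cells make as well as macrophages. Its signals of 833, 936, 612 and 781 in transgenic mice, 686, 801, 560.5 and 535 in wild-type high-fat mice and 836, 648 and 786 on the normal diet overlapped between all groups. Its log2 difference was 0.29 ± 0.16 against wild-type high-fat mice and -0.24 ± 0.18 between diets, with 0.05 in transgenic mice against the normal diet. Cd163, the haemoglobin-haptoglobin receptor of macrophages, had differences of -0.32 ± 0.49 against the normal diet and -0.39 ± 0.49 between diets, and was the only gene below 0 in transgenic mice against the normal diet. Transgenic array 3 had a Cd163 signal of 37.8, against 157 to 168 in the other transgenic arrays and 69.8 to 154 in wild-type high-fat mice. Without transgenic array 3 the Cd163 difference against the normal diet had the other sign, at 0.20.

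Msr1, the class A scavenger receptor for modified lipoproteins, was read by 4 probe sets. The brightest had a log2 difference of 0.72 ± 0.39 in transgenic mice against the normal diet and 0.48 ± 0.36 against wild-type high-fat mice (limma adjusted p = 0.351 and 0.583). A dimmer one had signals of 139, 298, 63.8 and 114 in transgenic mice, 79, 93.6, 29.3 and 51.3 in wild-type high-fat mice and 47.2, 34.8 and 29.7 on the normal diet, all 4 transgenic arrays above all 3 normal-diet arrays. In another, transgenic array 3 (65.7) lay below normal-diet array 2 (71.5). In the dimmest the lowest transgenic signal was 38.7 and the highest normal-diet one 34.8. Between diets the dimmest had a log2 difference of -0.77 ± 0.92 with no filter, against 0.24 ± 0.39 at the brightest. Marco, a scavenger receptor of the same class, lay under the signal filter, with 13.8, 183, 18.2 and 66.8 in transgenic mice, 44.7, 149.9, 6.2 and 2.1 in wild-type high-fat mice and 10.2, 1.8 and 3.9 on the normal diet. Its 3 highest values were transgenic array 2, wild-type high-fat array 2 and transgenic array 4. With no filter its log2 difference was 3.33 in transgenic mice against the normal diet and 1.28 between genotypes (limma adjusted p = 0.281 and 0.746).

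General macrophage genes included the growth factor receptor, its transcription factor and phagosome proteins. Mpeg1, which encodes perforin-2, a pore-forming protein that kills engulfed bacteria, had the largest difference of the 31 against wild-type high-fat mice. Its signals were 1391, 2652, 983 and 2016 in transgenic mice, 427, 2094, 716 and 764 in wild-type high-fat mice and 448, 708 and 418 on the normal diet. Wild-type high-fat array 2 lay among the transgenic arrays, and the other 3 lay below them all. Mpeg1 had a log2 difference of 0.98 ± 0.43 (limma adjusted p = 0.345), and 1.42 without wild-type high-fat array 2. Against the normal diet it was 1.69 ± 0.46 (limma adjusted p = 0.0843, 0.0242 to 0.226 over the alternatives).

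Csf1r, the receptor for the macrophage growth factors CSF1 and IL-34, had signals of 2047, 2817, 1459 and 2345 in transgenic mice, 1699, 2110.1, 1365 and 1659 in wild-type high-fat mice and 1502, 1056 and 1321 on the normal diet. Transgenic array 3 overlapped the other groups and the other transgenic arrays lay above the normal-diet ones. The log2 difference was 0.72 ± 0.21 in transgenic mice against the normal diet (limma adjusted p = 0.106), and the other 2 Csf1r probe sets had the same sign in every comparison. Spi1 had signals of 97.5, 113, 102 and 99 in transgenic mice, 44.4, 100.5, 45.2 and 94.3 in wild-type high-fat mice and 62.5, 87.1 and 34.8 on the normal diet. The transgenic values were close together and all above the normal-diet ones, with a log2 difference of 0.84 ± 0.38 that did not pass (limma adjusted p = 0.268).

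Aif1, the actin-binding protein IBA1 of macrophages, had the smallest p of the 31 between diets. Its signals were 62, 179, 74.8 and 99 in transgenic mice, 98.8, 143, 70.2 and 102 in wild-type high-fat mice and 35.3, 60.4 and 45 on the normal diet, so both high-fat groups lay above every normal-diet array. The log2 difference was 1.13 ± 0.37 between diets (limma adjusted p = 0.639), 1.06 ± 0.37 in transgenic mice against the normal diet, and -0.08 ± 0.35 between transgenic and wild-type mice on the high-fat diet. Adgre1, which encodes the mouse macrophage antigen F4/80, had 0.56 between diets and -0.15 between genotypes. Aif1 and Adgre1 were the 2 genes with a difference below 0 between genotypes, and for both that sign turned under some alternatives. Cd68, a lysosomal glycoprotein of phagocytes, had 0.58 between diets and 0.63 between genotypes. None of these values passed.

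Fcgr3, Fcer1g and Tyrobp, a receptor for antibody and 2 signalling chains, did not pass in any comparison. Fcgr3, an activating IgG receptor, had signals of 201, 292, 158 and 212 in transgenic mice, 180.3, 274, 124 and 129 in wild-type high-fat mice and 117, 96.5 and 112 on the normal diet. All arrays of both high-fat groups lay above the normal-diet arrays, with a log2 difference of 0.63 ± 0.28 between diets and 0.96 ± 0.28 in transgenic mice against the normal diet (limma adjusted p = 0.692 and 0.104). Tyrobp, the adaptor DAP12 of several myeloid receptors, had 372, 673, 277 and 425 in transgenic mice, 191, 571, 161 and 248 in wild-type high-fat mice and 226, 142 and 172 on the normal diet. Wild-type high-fat array 2 had the second-highest Tyrobp value of all 11, and the log2 difference between genotypes was 0.69 ± 0.37 (limma adjusted p = 0.436). Fcer1g, the common gamma chain that Fcgr3 signals through, had log2 differences of 0.88 in transgenic mice against the normal diet, 0.40 between genotypes and 0.48 between diets.

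Lysozyme, the secreted enzyme that cuts bacterial cell walls, is encoded in mice by the macrophage gene Lyz2 and its near-identical neighbour Lyz1, which Paneth cells of the gut make. Lyz2 had signals of 529, 658, 505 and 716 in transgenic mice, 510.1, 1987, 276 and 419.8 in wild-type high-fat mice and 364, 266 and 289 on the normal diet. The brightest Lyz1 probe set had 1161, 1502, 1476 and 1774 in transgenic mice, 1247, 4406, 849 and 975 in wild-type high-fat mice and 845, 630.3 and 741 on the normal diet. Wild-type high-fat array 2 stood far above every other array for both, while the transgenic arrays lay above all normal-diet arrays.

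Between genotypes the log2 difference was 0.02 for Lyz2 and 0.0012 for Lyz1, and without wild-type high-fat array 2 it was 0.61 and 0.53. Between diets it was 0.95 ± 0.49 and 0.99 ± 0.44, and 0.36 and 0.46 without that array. In transgenic mice against the normal diet it was 0.97 ± 0.49 and 0.99 ± 0.44 (limma adjusted p = 0.319 and 0.256, from 0.0154 to 0.519 for Lyz1 over the alternatives). The Lyz1 probe set without a marked risk of cross-hybridisation was dim, at 32.6, 34.6, 65.6 and 71.6 in transgenic mice, 25.8, 35.7, 44.9 and 48.7 in wild-type high-fat mice and 40.3, 28.4 and 33.4 on the normal diet, and did not stand out in wild-type high-fat array 2. The 2 bright Lyz1 probe sets carry the manufacturer's suffix for probes that may bind other sequences, so their signal cannot be told apart from that of Lyz2.

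**Figure D3:**
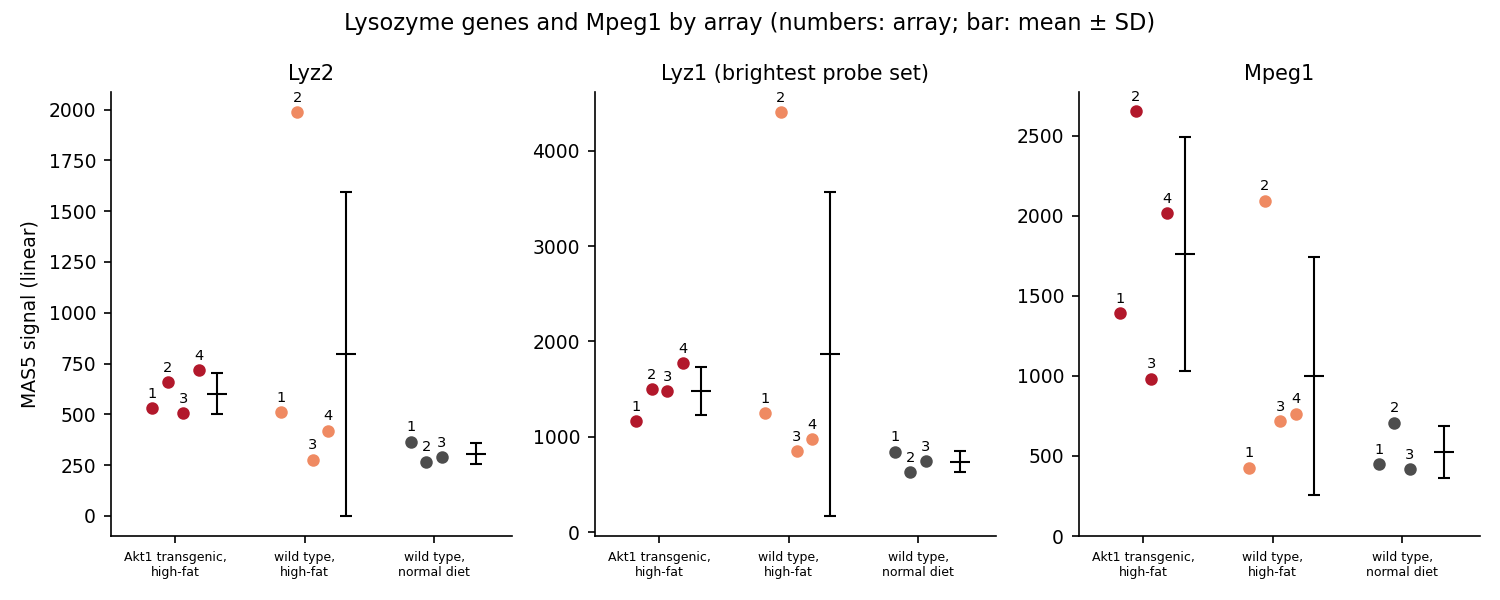
MAS5 signal (y axis, linear) of Lyz2, the brightest Lyz1 probe set and Mpeg1 in each array of the 3 groups (x axis), with array numbers and the mean ± SD. Wild-type high-fat array 2 is far above the other arrays for both lysozyme genes, and for Mpeg1 it lies among the transgenic arrays.

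Of the other lysosomal genes, Ctss, a cysteine protease of antigen-presenting cells, had log2 differences of 0.81 in transgenic mice against the normal diet, 0.34 between genotypes and 0.47 between diets. Laptm5, a lysosomal membrane protein of leukocytes, had 0.14, 0.23 and -0.08 in the same order of comparisons at its brightest probe set. The 2 dimmer Laptm5 probe sets lay above 0 between diets (0.39 and 0.16), so its direction there differed between probe sets.

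Cybb and Cyba encode the 2 membrane subunits of the phagocyte NADPH oxidase, which makes superoxide in the phagosome. Cybb, the catalytic one, is largely restricted to phagocytes and B cells. Its signals were 109, 178, 102 and 83.7 in transgenic mice, 93.9, 139, 44.4 and 70.9 in wild-type high-fat mice and 67.2, 30.6 and 44.3 on the normal diet, with all transgenic arrays above the normal-diet ones. Cybb had a log2 difference of 1.33 ± 0.41 in transgenic mice against the normal diet (limma adjusted p = 0.118), 0.83 ± 0.41 between diets and 0.50 ± 0.38 between genotypes. Cyba, which many cell types make, had 0.74 ± 0.53 in transgenic mice against the normal diet (limma adjusted p = 0.497).

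None of the leukocyte genes shared by other blood cells passed the test. Itgb2, the beta chain of the leukocyte integrins, had signals of 138, 296, 103 and 140.0 in transgenic mice, 135, 249.8, 76.4 and 101 in wild-type high-fat mice and 92.8, 67.3 and 34.8 on the normal diet. Array 2 was about as high in wild-type high-fat as in transgenic mice, and the log2 difference was 1.08 ± 0.46 between diets and 0.30 ± 0.43 between genotypes (limma adjusted p = 0.692 and 0.803). Ptprc (the leukocyte antigen CD45), Cd52, Cd53 and Coro1a had log2 differences in transgenic mice against the normal diet of 0.79, 1.40, 1.18 and 1.06, with limma adjusted p from 0.171 to 0.242.

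The monocyte and granulocyte markers were dim. Ccr2, the receptor through which blood monocytes are recruited, had signals of 44.5, 52.2, 71 and 43.5 in transgenic mice, 33.4, 34.5, 55.2 and 55.4 in wild-type high-fat mice and 43.2, 25.4 and 24.9 on the normal diet at its brightest probe set. Itgam, the integrin alpha chain CD11b of monocytes and neutrophils, had 35, 6.8, 13.2 and 7.7 in transgenic mice, 12.8, 48.7, 21.9 and 26.9 in wild-type high-fat mice and 28.5, 14.1 and 40.3 on the normal diet. Both lay under the signal filter, and their groups overlapped. With no filter Ccr2 differed by 0.26 between genotypes and 0.78 in transgenic mice against the normal diet (limma adjusted p = 0.842 and 0.408), and Itgam by -0.98 and -1.02 (limma adjusted p = 0.616 and 0.561). The 3 Ccr2 probe sets disagreed. The dimmest had 33.6, 67.6, 22.8 and 6.2 in transgenic mice, 2.2, 12.5, 8.2 and 3.8 in wild-type high-fat mice and 5.8, 7.3 and 2.8 on the normal diet, with log2 differences of 2.14 ± 0.82 between genotypes and 2.28 ± 0.88 in transgenic mice against the normal diet (limma adjusted p = 0.349 and 0.270 over all probe sets). The remaining one had -0.36 ± 0.58 and 0.05 ± 0.62 in those comparisons.

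One array of each high-fat group carried most of the highest values. Transgenic array 2 had the highest transgenic signal for 28 of the 31 genes (29.2% of all genes), and wild-type high-fat array 2 the highest of its group for 28 (31.6% of all genes). Transgenic array 3 was lowest in its group for 23 of 31 (30.2% of all genes) and wild-type high-fat array 3 for 24 (23.5%). Among the normal-diet arrays, array 1 was highest for 23 of 31 (40.6% of all genes) and array 2 lowest for 18 (33.8%). The spread between mice of 1 group was thus shared by the genes. Cd14 and both lysozymes were the exceptions among transgenic mice, with array 4 highest.

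The mean log2 shift of the 31 genes from the normal-diet mean was 0.86, 1.62, 0.42 and 1.01 in transgenic arrays 1 to 4, 0.55, 1.27, -0.0027 and 0.42 in wild-type high-fat arrays 1 to 4 and 0.22, -0.15 and -0.08 in normal-diet arrays 1 to 3. Transgenic arrays all lay above the normal-diet arrays and overlapped the wild-type high-fat ones. The median difference between genotypes, 0.47, was 0.18 without transgenic array 2, 0.25 without wild-type high-fat array 3, 0.44 without array 2 of both groups and 0.72 without transgenic arrays 3 and 4. Between diets the median of 0.58 was 0.29 without wild-type high-fat array 2. The median of 1.02 in transgenic mice against the normal diet was 0.86 without transgenic array 2 and 1.17 without transgenic array 3.

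**Figure D4:**
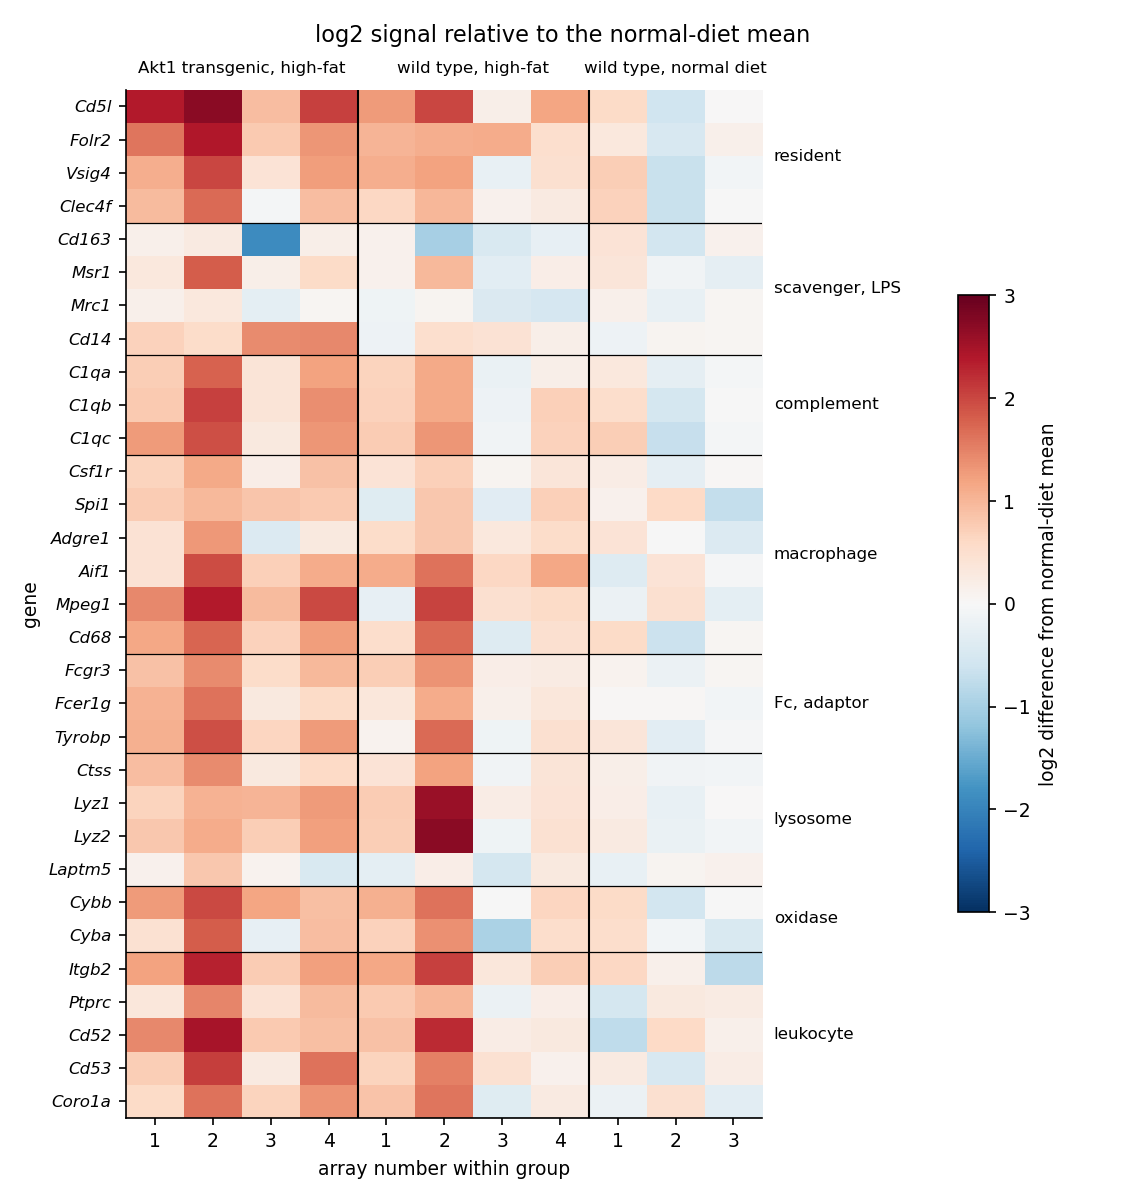
Log2 signal of the 31 genes (rows, grouped by role) relative to their normal-diet mean in each array (columns, numbered within group), with red above and blue below that mean. Array 2 of both high-fat groups is red across nearly all rows, with the 2 lysozyme genes darkest in wild-type high-fat array 2.

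Resident Kupffer genes were set against general myeloid genes by the mean log2 shift of the 4 resident genes and of the other 27. Cd163, which a wider list of resident Kupffer markers also holds, was counted among the 27. Its differences, -0.32 in transgenic mice against the normal diet and -0.39 between diets, lowered the general mean shift. On the resident side Cd163 would lower the resident mean shift, and the general one would be higher without it. The resident minus general difference would then be smaller in both high-fat groups, by an amount that was not computed. Resident genes shifted by 1.40 ± 0.69 in transgenic mice (SD, n = 4) and 0.81 ± 0.45 in wild-type high-fat mice (SD, n = 4) from the normal-diet mean. General myeloid genes shifted by 0.91 ± 0.47 and 0.52 ± 0.55 in the same groups. The resident minus general difference was 0.74, 0.67, 0.11 and 0.44 in transgenic arrays 1 to 4, 0.52, 0.06, 0.35 and 0.22 in wild-type high-fat arrays 1 to 4 and 0.41, -0.52 and 0.11 in normal-diet arrays 1 to 3. It averaged 0.49 ± 0.28 in transgenic mice, 0.29 ± 0.20 in wild-type high-fat mice and 0 by construction on the normal diet, where the SD was 0.48. Groups overlapped, and the differences between group means were no larger than about 1 SD of the normal-diet arrays. The contrast also moved with single arrays. Its difference between genotypes, 0.20, was 0.12 without transgenic array 1, 0.33 without transgenic array 3, 0.13 without wild-type high-fat array 2, 0.068 without array 2 of both groups and 0.42 without transgenic arrays 3 and 4. Between diets the difference of 0.29 was 0.026 without normal-diet array 2 and 0.49 without normal-diet array 1. The difference of 0.49 in transgenic mice against the normal diet was 0.23 without normal-diet array 2.

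The 4 resident genes differed among themselves in that contrast. With Clec4f and Vsig4 alone, the resident minus general difference averaged 0.12 ± 0.25 in transgenic mice and 0.05 ± 0.23 in wild-type high-fat mice, so Cd5l and Folr2 carried most of it. In wild-type high-fat array 2 the general genes had shifted by 1.26 and the resident genes by 1.32, the smallest resident excess of that group. These members were chosen with earlier results of these data known, so no p is given for the contrast.

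**Figure D5:**
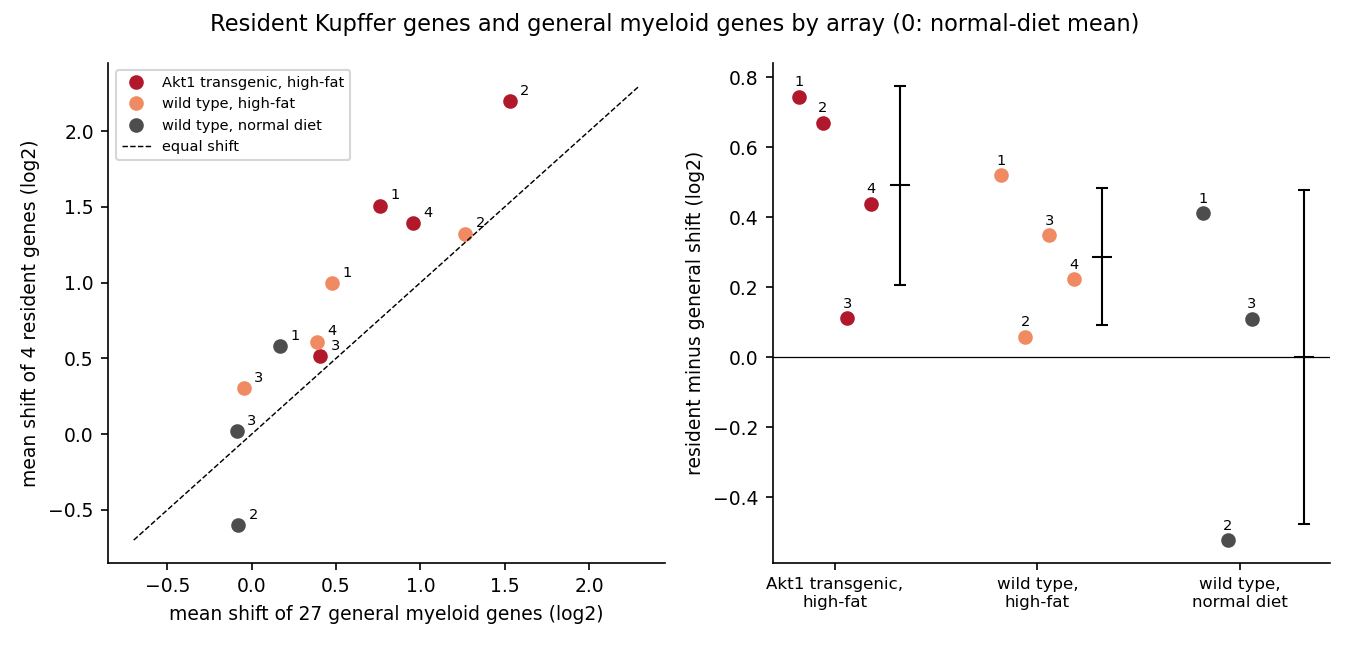
Left, mean log2 shift of the 4 resident genes (y axis) against that of the 27 general myeloid genes (x axis) in each array, where 0 is the normal-diet mean and the dashed line marks equal shifts; right, the difference by group with its mean ± SD. Array 2 of both high-fat groups has the highest general shift of its group, and the resident minus general difference overlaps between groups.

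Other macrophage and myeloid genes came from a list of 64 that holds none of the 35. Of the 33 that passed the signal filter, 1 rose in transgenic mice against the normal diet and none fell (1.4% of all genes rose and 0.681% fell). The median log2 difference was 0.71 (0.004 over all genes). None passed between genotypes (median 0.36, with 0.366% of all genes passing) or between diets (median 0.33, with 0% of all genes passing). The gene that rose was Ccl6, a chemokine of macrophages and other myeloid cells, with signals of 274, 416, 308 and 386 in transgenic mice, 205, 207, 86.2 and 148 in wild-type high-fat mice and 136, 76.7 and 80.6 on the normal diet. All 4 transgenic arrays lay above every wild-type array of both diets, though how many of all genes did so was not counted. The log2 difference was 1.85 ± 0.31 against the normal diet and 1.16 ± 0.29 against wild-type high-fat mice (limma adjusted p = 0.0157 and 0.112). Sirpa, an inhibitory receptor of myeloid cells, was next, at 0.99 ± 0.26 (limma adjusted p = 0.0694). Lcp1, an actin-bundling protein of leukocytes, differed from these with -0.34 ± 0.12 between genotypes (limma adjusted p = 0.232). It was not the only one below 0. Of the 33 genes, 26 lay above 0 between genotypes, 26 between diets and 30 in transgenic mice against the normal diet (50.2%, 51.1% and 50.6% of all genes). Between diets, Cd36 (a fatty acid transporter that hepatocytes make too) at 1.91 ± 0.60 and Csf1 at 0.48 ± 0.20 had the smallest p (limma adjusted p = 0.606 and 0.682).

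Markers of other cells were read beside these values. Of 13 neutrophil genes with a probe set, 10 lay under the signal filter, among them the granule genes S100a8, S100a9, Mpo, Elane, Ngp, Camp and Ltf. The summed signal of the 13 was 1792 to 9164 in transgenic mice, 547 to 1516 in wild-type high-fat mice and 345 to 432 on the normal diet, with Lcn2 and Prtn3 among the 3 that passed the filter. Lcn2 alone had 1180 to 8079 in transgenic mice, 212 to 1068 in wild-type high-fat mice and 58.7 to 71.8 on the normal diet. It made up most of the transgenic sums, so the sum does not describe the neutrophil genes as a set. Lcn2, which hepatocytes also make, rose in transgenic mice against the normal diet (5.83 ± 0.62, limma adjusted p = 0.00118). Prtn3, a neutrophil serine protease, rose in transgenic mice against both the wild-type high-fat mice (4.89 ± 0.75) and the normal diet (4.47 ± 0.81), with limma adjusted p = 0.0317 and 0.0183. Its signals were 203, 1418, 252 and 542 in transgenic mice, 6.1, 13.3, 43.9 and 14.1 in wild-type high-fat mice and 7, 33.5 and 34.6 on the normal diet. Every wild-type array lay under the filter level of about 53.0, so Prtn3 passed the filter only through the transgenic arrays. Its test is thus not independent of the filter, and the size of its differences rests on wild-type values near the floor. S100a8 had 51.4, 75.1, 67.7 and 63.5 in transgenic mice, 19.9, 50.5, 25.5 and 13 in wild-type high-fat mice and 22.1, 25.6 and 23.5 on the normal diet, so the lowest transgenic and the highest wild-type array were close. Among the 10 genes under the filter, S100a8 and S100a9 were the 2 with every transgenic array above every wild-type array, and the other 8 overlapped. The share of all genes in that order was not counted, and the order of such dim values is not reliable. The transgenic mean was above the normal-diet mean for 7 of the 10, and below it for Mpo, Cxcr2 and Mmp9. The part of neutrophils in the leukocyte gene values was not tested.

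All 10 T and NK cell genes with a probe set lay under the filter, with summed signals of 254 to 339.9 in transgenic mice, 126 to 286 in wild-type high-fat mice and 128 to 279 on the normal diet. Of 7 B and plasma cell genes, 3 passed the filter and none passed the test, and their sums were 665 to 1062, 484 to 1204 and 443 to 845 in the same order of groups. The 12 liver endothelial genes, which share the sinusoid with Kupffer cells, had median log2 differences of 0.18 between genotypes, -0.11 between diets and -0.0009 in transgenic mice against the normal diet, with none passing. Endothelial sums were 6195 to 8337, 5452 to 6695 and 6037 to 7473. The 9 hepatocyte genes, Alb among them, all passed the signal filter in these livers, with medians of 0.19, 0.09 and 0.29 in those 3 comparisons and none passing the test.

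Stellate cell markers had medians of -0.24 between genotypes, 0.38 between diets and 0.05 in transgenic mice against the normal diet over 8 genes, with none passing. Bile duct, dendritic cell and proliferation lists had 1 gene each above the filter, the erythroid and platelet list had 3, and the adipocyte and skeletal muscle lists had none. Of these 6 genes only Mcm4, a replication licensing factor, passed. It rose in transgenic mice against both wild-type high-fat mice and the normal diet (1.33 ± 0.24 and 1.51 ± 0.26, limma adjusted p = 0.0482 and 0.0162).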

How the data were processed

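According to the submitters' processing notes, the authors deposited MAS5 signal, a linear intensity per probe set that is computed array by array and scaled. No version is stated, and detection calls were not used here. The trimmed mean (2% left out at each end) was 500.3 on all arrays, and no other scaling was added. Values under 1 (1385 in all) were raised to 1 before log2. The platform annotation gives 20380 probe sets 1 symbol, 691 several and 1555 none, beside 64 controls. RefSeq (GRCm38.p6) held the Entrez identifier of 20351, and it changed 0 symbols. The dimmest 40% of probe sets were removed, and each of the 7924 remaining genes was read from its brightest probe set.

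One mean per group was fitted over all 11 arrays with limma 3.58.1 (under R 4.3.3; eBayes with trend after lmFit). Tests were two-sided with Benjamini-Hochberg adjustment over all genes. An error after a log2 difference is the moderated standard error, otherwise an SD. The code was tested on simulated data. The text names the 4 resident genes and the 5 other members of smallest p per comparison by rule. Others were described for their role after their values were seen. Members and lists were chosen with earlier results of these data known.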

Additional observations from a re-analysis of the deposited data

Results flagged for a closer look

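Values far from the other 3 arrays of their group were looked for in the 49 probe sets of these genes in each high-fat group. Of 98 sets of 4 values, 6 had such a value, where chance would give about 4.9 (about 1 in 20) for independent, normally distributed values. Linear signals need not be so distributed, and the sets share arrays and genes, so 4.9 is a rough guide only. Wild-type high-fat array 2 held 4 of them, all high. Its signal was 4406 at the brightest Lyz1 probe set (849 to 1247 in the other 3), 3389 at the second Lyz1 probe set (239.6 to 352), 1987 for Lyz2 (276 to 510.1) and 324 for Fcer1g (165 to 189). The Lyz1 and Lyz2 probe sets may bind the same transcripts, so they are not 3 separate observations. Transgenic array 2 had 417 at the brightest Msr1 probe set, against 134 to 178 in the other 3. Transgenic array 3, the array with the lowest poly-A spike signal, had a Cd163 signal of 37.8, against 157 to 168. The causes were not tested.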

How the results depend on the processing

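Of 583 values of the genes named by rule, each in the comparison it was named for, under 22 alternatives, none turned its sign. Among all 31 genes the sign turned under some alternative for 7 between genotypes (Adgre1, Aif1, Cd163, Cyba, Itgb2, Lyz1 and Lyz2), 3 between diets (Laptm5, Msr1 and Spi1) and 3 in transgenic mice against the normal diet (Cd163, Laptm5 and Mrc1). Of the genes named by rule, all 196 values between genotypes and all 193 between diets stayed on the same side of the threshold. In transgenic mice against the normal diet 29 (of Cd5l and Folr2) were no longer past it and 5 (of Mpeg1 and Csf1r) newly passed. The number of these genes called in that comparison was 2, and 1 with quantile normalization (Cd5l), 0 with no filter, 1 with a 60% filter (Cd5l), 0 without an intensity trend and 0 without transgenic arrays 3 and 4, an alternative chosen after seeing the data. With only the groups compared in the fit 3 other genes passed (Lyz1, Lyz2 and Mpeg1). Leaving out 1 array gave 0 to 6. Over all genes, 165 were called in that comparison, 81 without a trend, 104 with only the groups compared, 23 without transgenic arrays 3 and 4, and 36 to 199 leaving out 1 array. Between genotypes 29 were called, 12 with no filter, 48 over all probe sets, 0 without a trend, 58 with array weights, 8 with only the groups compared, 4 without transgenic arrays 3 and 4, and 0 to 64 leaving out 1 array. Between diets 0 were called, 1 with array weights, 2 without transgenic arrays 3 and 4, and 0 to 2 leaving out 1 array. Alternatives with fewer arrays test with fewer samples, and other causes were not tested. Without array 2 of both high-fat groups, also chosen after seeing the data, 2 of these genes were called against the normal diet, Lyz1 and Mpeg1. With the replicate block 4 of these genes were called in transgenic mice against the normal diet (Cd52, Cd5l, Itgb2 and Mpeg1), 0 in the other comparisons, and 2 genes of all between diets. For arrays of the same number, deviations from the group means correlated at 0.084 to 0.29 between genotypes, -0.072 to 0.029 between diets and -0.059 to 0.11 in transgenic mice against the normal diet. Those ranges are over all genes. Over the 31 genes they were -0.099 to 0.17 between genotypes and 0.21 to 0.31 between diets. In transgenic mice against the normal diet the 31 genes had -0.076 to 0.32. The labels do not say what the numbers mark, so they were not taken as pairs. As a hint of a link between the high-fat groups, each of the 8 high-fat arrays correlated best, over all genes, with its own number in the other genotype. The main fit leaves any such link out, and Folr2 was not called with the replicate block. What the link might be was not tested. Detection calls were not used here, so signal over background limits the dim genes (Marco, Ccr2, Itgam), whose values near the floor have no reliable order.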
